A study of Oryza sativa with 2 samples.

Results

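Single nuclear loci of 150 to 199 nt were taken from a survey of intermediate-size non-coding RNA in rice (Oryza sativa). Loci from both position lists were joined by name. A locus was included if it lay on a nuclear chromosome, had no other locus within 500 nt on its strand, measured 150 to 199 nt, and fell outside 3 stretches of chromosomes 1, 4 and 10 that carry many loci resembling organelle DNA. This gave 80 of 1349 loci. The rule used position and length but no read number, though it was set with earlier results of these data known.

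RNA of 50 to 500 nt was ligated to adaptors at both ends and sequenced on the 454 platform without amplification of the cDNA. Stage 1 comprised coleoptiles, shoot, leaves at tillering and a tissue labelled radicals, while stage 2 comprised anther, pistil and embryo (labelled grouting embryo). No cultivar, age or treatment is given, and the pooling of tissues is not stated. Each stage had 1 library, with 80651 reads in stage 1 and 117798 in stage 2, so there is no replicate error, no test between stages was possible, and every interval covers counting error only.

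The size range is that of several small nuclear RNAs of the spliceosome. In this machine U1 snRNA pairs with the 5′ splice site, U2 snRNA pairs with the branch point, and U4 snRNA pairs with U6 snRNA and holds it inactive until the spliceosome is activated. Plant genomes carry each of these RNAs as a family of similar gene copies scattered over several chromosomes, each copy usually with a promoter of its own. Most of these RNAs are transcribed by RNA polymerase II and receive a modified cap at the 5′ end. The deposited lists give positions and read numbers only, so no locus is given the name of an RNA here, and no sequence is shown.

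The 80 loci held a large part of the reads for their number, and that part was smaller in stage 2. They took 24376 reads in stage 1, which is 30.2% of that library (exact Clopper-Pearson interval with 95% confidence, 29.9 to 30.5). They took 18556 reads in stage 2, or 15.8% (15.5 to 16.0). In reads per 1000000 reads of the library (RPM), the stage 2 to stage 1 ratio was 0.521, with an exact conditional binomial 95% interval of 0.511 to 0.531. The median locus of the whole series was above 1. Over all 483 loci with at least 20 reads in both libraries together, the log2 ratio had a median of 0.47, equal to a ratio of 1.39. The minimum was on raw reads, so loci high in the larger stage 2 library passed it more easily. Relative to that median the 80 loci stood at 0.376 (0.368 to 0.383).

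The 3 other size classes of nuclear loci compared had higher summed ratios. Single nuclear loci of 100 to 149 nt, 152 in number, took 19.6% of stage 1 and 19.0% of stage 2 reads, a ratio of 0.967 (0.948 to 0.987). Nuclear loci of 200 nt or longer, 52 in number, were at 0.928 (0.892 to 0.965), and the 245 single nuclear loci of 70 to 99 nt were at 1.87 (1.76 to 2.00). None of these 3 intervals overlaps that of the 150 to 199 nt class, but the intervals leave out the spread between loci. Much of the distance came from the 13 loci of 196 nt. Without them the other 67 loci were at 0.843 (0.820 to 0.866), still lower but nearer to the 100 to 149 nt and the 200 nt or longer classes. That length was left out with its values known, and no length was left out of the other classes. Among the 13, the 4 lowest were together at 0.144 (0.137 to 0.152) and the other 9 at 0.549 (0.530 to 0.568). With 1 library per stage, the difference between classes has no replicate check.

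**Figure D1:**
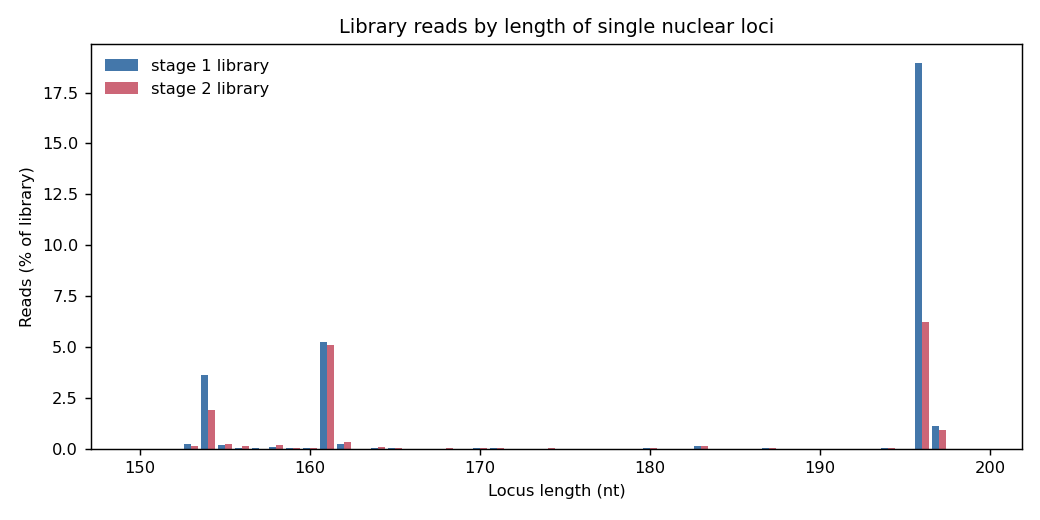
Percent of all library reads (vertical axis) held by the single nuclear loci of each length from 150 to 199 nt (horizontal axis), for the stage 1 and stage 2 libraries. Reads stand in 3 narrow peaks at 154, 161 and 196 nt, and the 196 nt peak goes from 18.9% in stage 1 to 6.25% in stage 2.

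Reads were not spread evenly over the size window. The 80 loci had 33 different lengths, and 10 lengths were held by 3 or more loci, but 3 lengths carried nearly everything. The 29 loci of 154, 161 or 196 nt took 92.0% of the 80 loci's reads in stage 1 and 84.0% in stage 2, with a median of 797 reads per locus over both libraries. The other 51 loci had a median of 19 reads. The 3 lengths were picked as the recurring lengths with the most reads, so their larger share and median follow in part from that choice. As sums, the 3 lengths were at a ratio of 0.476 (0.466 to 0.486) and the other 51 loci at 1.05 (0.987 to 1.11), which was 0.753 relative to the median locus.

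The summed reads of the 3 lengths differed from one another in their balance between libraries. The 13 loci of 196 nt were lowest, at 0.330 (0.321 to 0.339). The 7 loci of 154 nt were at 0.525 (0.496 to 0.555), and the 9 loci of 161 nt at 0.968 (0.931 to 1.01). Their intervals do not overlap, but they leave out the spread among loci of 1 length. For loci with at least 20 reads the median ratios were 0.493, 0.757 and 0.878 in the same order. The ranges were 0.0559 to 1.41, 0.451 to 1.49 and 0.622 to 10.2. Without the 4 lowest loci, picked by their values, the 196 nt sum was 0.549 (0.530 to 0.568), which overlaps the 154 nt interval. Relative to the median locus the summed ratios of the whole lengths were 0.238, 0.378 and 0.698. As a share of the 80 loci's own reads, the 196 nt loci went from 62.7% to 39.7% and the 161 nt loci from 17.4% to 32.3%, while the 154 nt loci held 11.95% and 12.03%.

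Among single loci, 51 of the 80 had at least 20 reads over both libraries, and those 51 were set against a 2-fold rule of size. This minimum was on raw reads, so a locus high in stage 2, the larger library, passed more easily. JNnc_loci0543 passed through stage 2 alone, with 0 and 23 reads. All loci behind the shares given beside were filtered alike. At least 2-fold lower in stage 2 were 12 of the 51, or 23.5%, where 11.6% of all loci of that depth were. At least 2-fold higher were 8 of the 51, or 15.7%, beside 32.9% of all. Of the 12 lower loci 7 were of 196 nt, and of the 8 higher none was. Relative to the median locus the numbers were 25 lower (49.0%, beside 22.2% of all) and 5 higher (9.80%, beside 18.2%). The median log2 ratio of the 51 was -0.40, against 0.47 for all 483 loci, 0.29 for 62 single loci of 100 to 149 nt and 0.21 for 31 nuclear loci of 200 nt or longer. Counting intervals lay below 1 for 24 of the 51 (47.1%, beside 22.8% of all loci) and above 1 for 12 (23.5%, beside 48.4%). Measured from the median locus, they lay below it for 31 (60.8%, beside 34.6%) and above it for 6 (11.8%, beside 30.4%). These interval counts also depend on depth, since more reads give narrower intervals. Of the 10 loci with most reads in the whole series, 8 were among the 80 in stage 1 and 2 in stage 2.

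**Figure D2:**
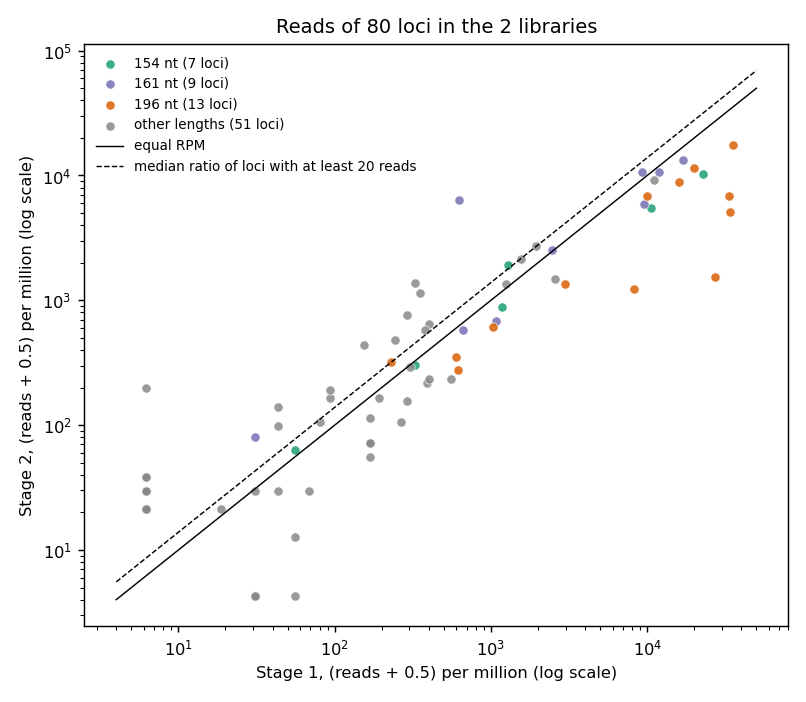
RPM in stage 1 (horizontal axis) and stage 2 (vertical axis) of the 80 loci, with 0.5 reads added to each count and log scales on both axes. Colours mark loci of 154, 161 and 196 nt, the solid line equal RPM and the dashed line the median ratio of 1.39. Most 196 nt points lie under the solid line, and JNnc_loci0136 of 161 nt stands far above it.

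The 196 nt loci lay on 4 chromosomes, 7 of them on chromosome 2, 4 on chromosome 7, and 1 each on chromosomes 8 and 12. All 13 had at least 20 reads. No 2 of them had the same pair of read numbers, so the counts are not 1 value repeated over copies. How the authors placed a read that matches several near-identical copies is not given in the sources, and the split of reads among copies of 1 length is uncertain for that reason.

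The set was not reduced in proportion, and the order of its loci changed between libraries. JNnc_loci0175 (chromosome 2, 3196191 to 3196386, plus strand) led in both, with 2875 and 2071 reads, or 35647 and 17581 RPM. Its ratio was 0.493 (0.466 to 0.522), yet its share of the 196 nt reads went up from 18.8% to 28.1%. JNnc_loci0176, on the opposite strand 37350 nt away, had 1611 and 1351 reads and went from the fifth place to the second, with 10.5% and 18.4% of the 196 nt reads. These neighbours had similar ratios, 0.493 and 0.574, although their intervals do not overlap.

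JNnc_loci0182 (chromosome 2, 5232170 to 5232365, minus strand) was second among the 196 nt loci in stage 1 and the sixth in stage 2. It had 2712 and 604 reads, or 33626 and 5127 RPM, a ratio of 0.152 (0.139 to 0.167). JNnc_loci0913 (chromosome 7, 27900225 to 27900420, plus strand) had 2686 and 808 reads, a ratio of 0.206 (0.190 to 0.223). JNnc_loci0917, 1211420 nt further along the same strand, had 2205 reads against 180 and the lowest ratio of the 51 loci, 0.0559 (0.0477 to 0.0651). Over all 1349 loci it took rank 5 by reads in stage 1 and rank 158 in stage 2. It held 14.4% of the 196 nt reads in stage 1 (13.9 to 15.0) and 2.45% in stage 2 (2.11 to 2.83).

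Nearness on the chromosome did not go with a like ratio in every case. JNnc_loci0276 and JNnc_loci0277 lie 14415 nt apart on the minus strand of chromosome 2. JNnc_loci0276 had 83 and 71 reads, a ratio of 0.586 (0.421 to 0.814). JNnc_loci0277 had 659 and 145 reads, a ratio of 0.151 (0.125 to 0.181). In stage 1 the second of this pair had 7.94 times the reads of the first, and in stage 2 it had 2.04 times.

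On chromosome 12, JNnc_loci1204 (863793 to 863988) had 809 reads in each library, which is 10031 RPM in stage 1 and 6868 in stage 2. Its ratio of 0.685 (0.620 to 0.756) was second only to that of JNnc_loci0248 among the 13, and its share of the 196 nt reads went from 5.30% to 10.995%. JNnc_loci0894 on chromosome 7 had 1284 and 1051 reads, a ratio of 0.560 (0.516 to 0.608). The weak loci of this length, JNnc_loci0903, JNnc_loci0923 and JNnc_loci0275, lay between 0.447 and 0.585. JNnc_loci0248 alone was above 1, at 1.41 (0.781 to 2.63) on 18 and 37 reads, an interval that holds 1.

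The 4 loci with the lowest ratios, JNnc_loci0917, JNnc_loci0277, JNnc_loci0182 and JNnc_loci0913, took 8262 of the 15277 stage 1 reads of this length but 1737 of the 7358 in stage 2. The other 9 went from 7015 to 5621 reads, a summed ratio of 0.549 (0.530 to 0.568). This split was made after the values were seen and describes them only. By chromosome, the 7 loci of chromosome 2 were at 0.371 (0.357 to 0.384) and the 4 of chromosome 7 at 0.229 (0.218 to 0.241). Both chromosomes held loci on both sides of the split.

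**Figure D3:**
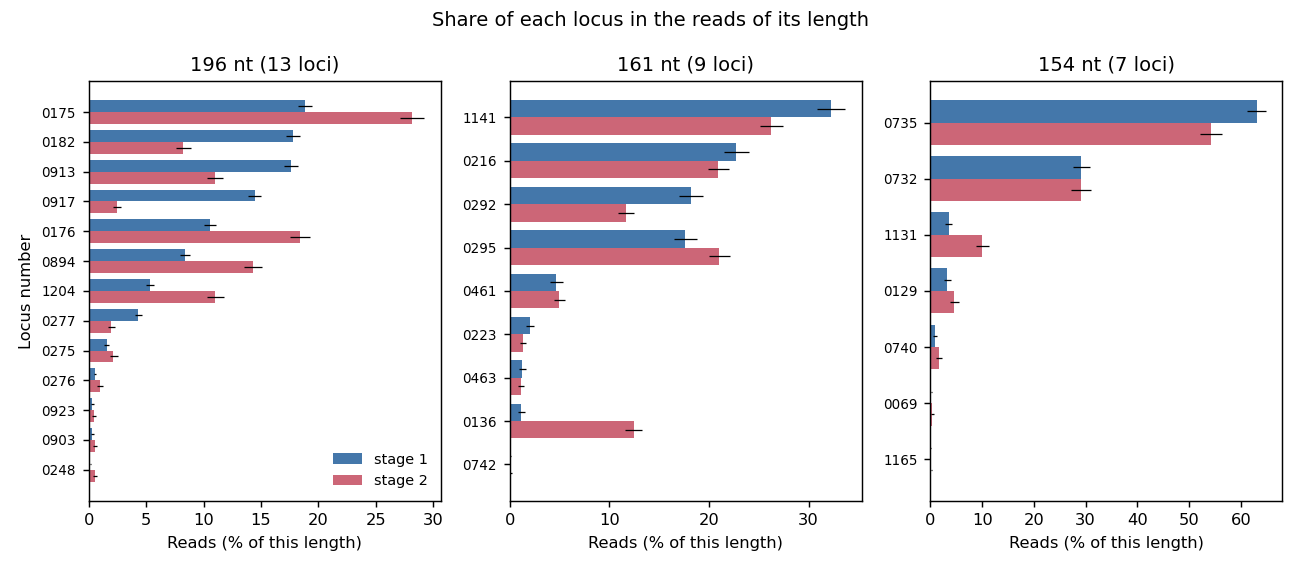
Percent of the reads of 1 length that each locus held (horizontal axis) in stage 1 and stage 2, for the loci of 196, 161 and 154 nt, with exact 95% intervals for counting error. Loci are listed by number in the order of their stage 1 share. JNnc_loci0917 goes from 14.4% to 2.45% of the 196 nt reads, and JNnc_loci0136 from 1.18% to 12.5% of the 161 nt reads.

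The 161 nt loci lay on 5 chromosomes, 4 of the 9 on chromosome 3, and 8 had at least 20 reads. Their summed ratio near 1 joined 1 locus far above 1 with 7 others of that depth between 0.622 and 1.16. JNnc_loci0136 (chromosome 1, 37414255 to 37414415, minus strand) had 50 reads in stage 1 and 747 in stage 2, or 620 and 6341 RPM. Its ratio of 10.2 (7.68 to 13.9) was the highest finite ratio of the 51 loci and stayed at 7.37 relative to the median locus. It held 1.18% of the 161 nt reads in stage 1 (0.876 to 1.55) and 12.5% in stage 2 (11.6 to 13.3). Without it the other 8 were at 0.858 (0.823 to 0.893), and without the strongest locus, JNnc_loci1141, the sum was at 1.05 (1.005 to 1.10).

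JNnc_loci1141 (chromosome 10, 21256151 to 21256311, plus strand) led the 161 nt loci at both stages. It had 1366 reads, then 1575, and its ratio was 0.789 (0.734 to 0.849). JNnc_loci0216 on chromosome 2 had 965 and 1257 reads, a ratio of 0.892 (0.819 to 0.971). These 2 had more reads but a smaller share of the library in stage 2.

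On chromosome 3, JNnc_loci0292 and JNnc_loci0295 lie 176372 nt apart on the minus strand and had nearly the same number of reads in stage 1, 771 and 748. In stage 2 they had 700 and 1263. Their ratios were 0.622 (0.560 to 0.689) and 1.16 (1.06 to 1.27), and the second turned to 0.833 relative to the median locus. At the other end of that chromosome, JNnc_loci0461 had 199 and 298 reads and JNnc_loci0463 had 53 and 67. Their ratios of 1.03 (0.854 to 1.23) and 0.866 (0.595 to 1.27) cannot be told from 1 at this depth. Relative to the median locus they were at 0.739 (0.615 to 0.888) and 0.624 (0.428 to 0.912), both below 1. JNnc_loci0223 on chromosome 2 had 86 and 80 reads, a ratio of 0.637 (0.464 to 0.874), and JNnc_loci0742 on chromosome 6 had 2 and 9 reads.

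The 154 nt loci were led by a pair on the minus strand of chromosome 6. JNnc_loci0735 (3203170 to 3203323) had 1837 and 1210 reads, or 22777 and 10272 RPM, a ratio of 0.451 (0.419 to 0.485). JNnc_loci0732 (2677202 to 2677355), 525814 nt away, had 850 and 650 reads, a ratio of 0.524 (0.472 to 0.581). The pair held 92.2% of the 154 nt reads in stage 1 and 83.3% in stage 2.

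The remaining 154 nt loci were weaker and less low in stage 2. JNnc_loci1131 (chromosome 10, 19521766 to 19521919, plus strand) had 103 and 224 reads, a ratio of 1.49 (1.17 to 1.90) that became 1.07 relative to the median locus. JNnc_loci0129 on chromosome 1 had 94 and 104 reads, a ratio of 0.757 (0.568 to 1.01). JNnc_loci0740 on chromosome 6 had 26 and 35, a ratio of 0.922 (0.539 to 1.59). JNnc_loci0069 had 4 and 7 reads and JNnc_loci1165 had 0 and 3. Summed over chromosomes other than 6, the ratio was 1.15 (0.964 to 1.38), or 0.830 relative to the median locus, against 0.478 (0.451 to 0.507) for the 3 loci on chromosome 6. Chromosome 6 was set apart with the values known, and both sums rested on their strongest loci. JNnc_loci1131 gave 224 of the 338 stage 2 reads off chromosome 6. The 2 loci of chromosome 1 were at 0.775 (0.586 to 1.03), below JNnc_loci0740 on chromosome 6.

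**Figure D4:**
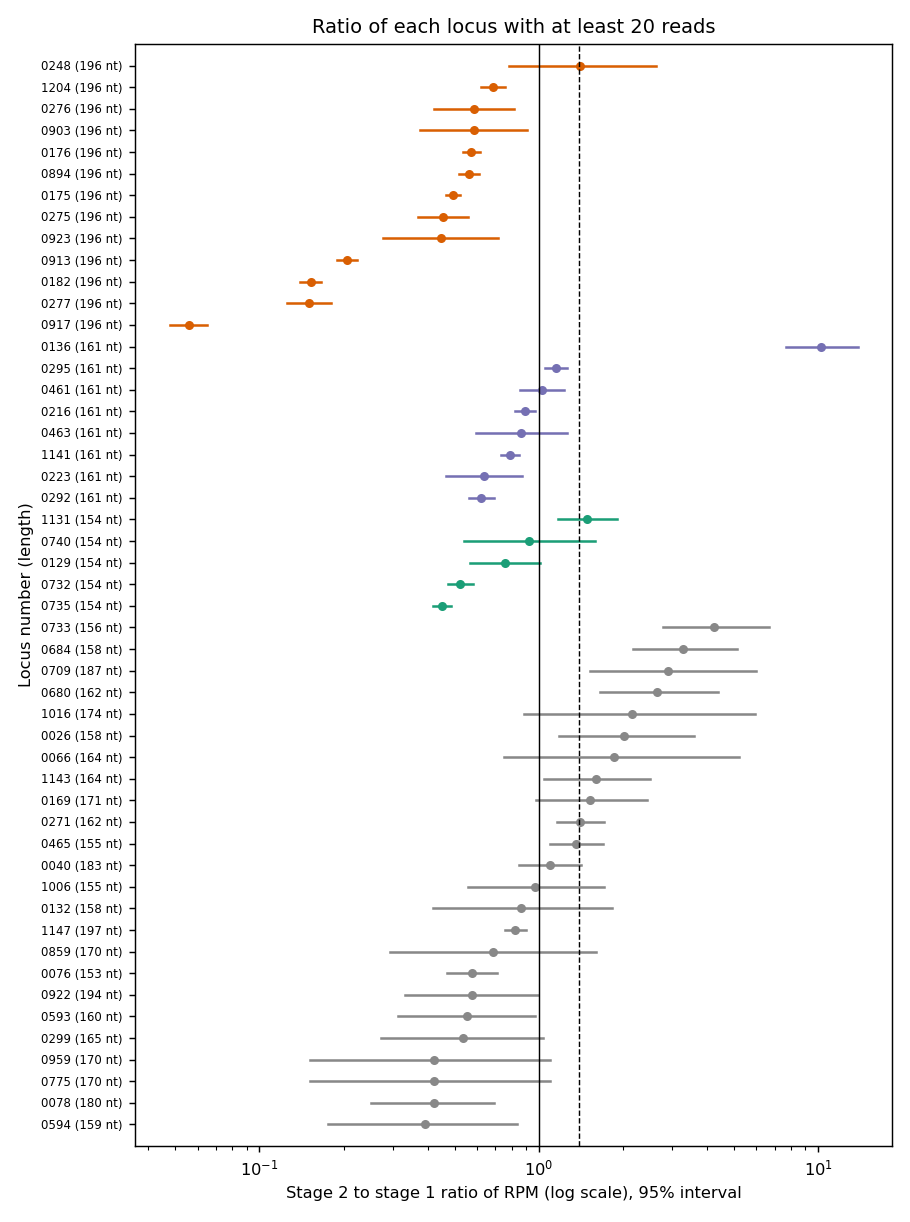
Stage 2 to stage 1 ratio of RPM (horizontal axis, log scale) with exact 95% intervals for 50 of the 51 loci with at least 20 reads, grouped by length; JNnc_loci0543, with 0 reads in stage 1, has no finite ratio. The solid line is a ratio of 1 and the dashed line the median ratio of 1.39. The 196 nt loci lie mostly left of both lines, from 0.0559 to 1.41, and the grey loci of other lengths run from 0.391 to 4.24.

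The remaining recurring lengths were of few reads. The 3 loci of 155 nt took 152 and 285 reads, a ratio of 1.28 (1.05 to 1.57). JNnc_loci0465 on chromosome 3 held 126 and 251 of them; without it the ratio was 0.895 (0.522 to 1.55), and relative to the median locus the whole length was at 0.925. The 4 loci of 158 nt were at 2.32 (1.75 to 3.11), or 1.67 relative to the median locus. Of these, JNnc_loci0684 on chromosome 5 had 28 and 134 reads, a ratio of 3.28 (2.17 to 5.12), and JNnc_loci0026 on chromosome 1 had 19 and 56, a ratio of 2.02 (1.18 to 3.60). JNnc_loci0466 had 3 and 11 reads, and JNnc_loci0132 had 15 and 19, a ratio of 0.867 (0.418 to 1.83). The 3 loci of 162 nt were at 1.53 (1.29 to 1.83) and the 3 of 164 nt at 1.70 (1.16 to 2.54). Relative to the median locus they were at 1.10 (0.926 to 1.32) and 1.23 (0.838 to 1.83), intervals that hold 1. The 3 of 170 nt, with 39 and 29 reads, were at 0.509 (0.304 to 0.845). The 159 and 174 nt loci, 3 of each, had summed intervals that hold 1. Relative to the median locus the 159 nt loci were at 0.423 (0.212 to 0.834), which does not hold 1. The 174 nt loci were at 1.60 (0.705 to 4.10), and among them JNnc_loci1016 on chromosome 9 had 7 and 22 reads.

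Loci of 162 nt are 1 nt longer than the strong 161 nt class. JNnc_loci0271 on chromosome 2 had 157 and 323 reads, a ratio of 1.41 (1.16 to 1.72) that became 1.01 (0.836 to 1.24) relative to the median locus. JNnc_loci0680 on chromosome 5 had 23 and 89 reads, a ratio of 2.65 (1.66 to 4.39), and JNnc_loci0666 on the same chromosome had 4 and 0. On either side of the 196 nt class, JNnc_loci1147 of 197 nt (chromosome 11, 826022 to 826218, plus strand) was strong, with 895 reads in stage 1, 1078 in stage 2 and a ratio of 0.825 (0.754 to 0.902). JNnc_loci0922 of 194 nt lies 1420 nt from the 196 nt locus JNnc_loci0923 on the plus strand of chromosome 8. The pair had 32 and 27, and 49 and 32 reads, with ratios of 0.578 (0.333 to 0.995) and 0.447 (0.277 to 0.712) whose intervals overlap.

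Among lengths that did not recur, JNnc_loci0733 of 156 nt (chromosome 6, 2713026 to 2713181, plus strand) had 26 reads in stage 1 and 161 in stage 2, a ratio of 4.24 (2.79 to 6.69). It lies between the 2 strong 154 nt loci of that chromosome, whose ratios were under 1. JNnc_loci0709 of 187 nt on chromosome 5 had 12 and 51 reads, a ratio of 2.91 (1.53 to 5.996). JNnc_loci0076 of 153 nt on chromosome 1 had 206 and 174 reads, a ratio of 0.578 (0.470 to 0.711), near that of the 154 nt pair. JNnc_loci0040 of 183 nt on the same chromosome had 100 and 160 reads, a ratio of 1.10 (0.848 to 1.42).

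Among loci with at least 20 reads outside the 196 nt class, the lowest ratio was that of JNnc_loci0594 of 159 nt on chromosome 4, with 21 reads in stage 1, 12 in stage 2 and a ratio of 0.391 (0.175 to 0.833). It was followed by JNnc_loci0078 of 180 nt on chromosome 1, with 44 and 27 reads, for which the ratio was 0.420 (0.250 to 0.694). JNnc_loci0775 and JNnc_loci0959, both 170 nt, lie on the minus strands of chromosomes 6 and 8 and had the same numbers, 13 and 8 reads. They were the only group of equal length and equal counts among the 80 loci and may not be separate signals.

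Both libraries listed 61 of the 80 loci, beside 41 of the 52 nuclear loci of 200 nt or longer, 76 of the 152 single loci of 100 to 149 nt and 64 of the 245 of 70 to 99 nt. These classes also differ in depth, with 63.8%, 59.6%, 40.8% and 11.4% of loci reaching 20 reads in the same order. Over the whole series both libraries listed 48.3% of the 1349 loci, beside 76.3% of the 80. Stage 2 alone listed 511 of all 1349 loci and 16 of the 80. Of these 16, JNnc_loci0543 of 168 nt was the strongest with 23 reads. The 95% interval of its ratio ran from 3.94 upward, or from 2.84 relative to the median locus. The other 15 had 4 reads or fewer. Stage 1 alone listed 186 of all 1349 loci and 3 of the 80, the latter with at most 4 reads. A floor of 3 reads is 37.2 RPM in stage 1 and 25.5 RPM in stage 2, so a level under that can be missed.

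Loci near the bounds of the size and spacing rules were as follows. Just below the window, JNnc_loci1054 of 149 nt had 53 and 95 reads, and just inside it JNnc_loci0600 of 150 nt had 3 and 16. The longest locus inside was JNnc_loci1147, and just outside was JNnc_loci0249 of 200 nt with 95 and 88 reads, a ratio of 0.634 (0.469 to 0.857). JNnc_loci0249 lies 2512 nt from the 196 nt locus JNnc_loci0248. On the same strand the closest neighbour of any of the 80 loci was 1420 nt away; counted on either strand, 77 of the 80 had none within 500 nt. Of the loci left out by spacing, JNnc_loci0871 came nearest to the limit, with a neighbour at 432 nt and 2 and 4 reads. JNnc_loci0530 of 165 nt, left out with a neighbour at 281 nt, was strong at 1024 and 1158 reads, a ratio of 0.774 (0.711 to 0.843), and JNnc_loci0260 of 167 nt had 100 and 128 reads and a neighbour at 334 nt. Of 127 loci in the size window, 41 nuclear loci were left out by spacing, 3 by the excluded stretches and 3 as organelle loci. No locus of 161 or 196 nt was among those left out, and 2 of 154 nt were, JNnc_loci0571 with 0 and 9 reads and JNnc_loci0832 with 25 and 143.

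Lengths were set beside the RefSeq gene table of rice assembly ASM3414082v1, whose build may differ from that of the lists, so positions were not compared. The table has 71 genes of type snRNA, 38 of them 150 to 199 nt long, and does not give their spliceosomal class. It also has 28 genes of type snoRNA, 512 of type rRNA and 3 of type misc_RNA in that window, so length alone does not identify an RNA. At 195 to 198 nt it has 17 snRNA, 2 snoRNA, 2 misc_RNA and no rRNA genes. At 160 to 162 nt it has 15 snRNA genes and none of these other types.

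At some lengths the chromosomes of these genes resembled those of the loci without being the same, if a step of 1 nt in length was allowed. RefSeq places 12 snRNA genes of 197 nt, 8 on chromosome 2, 3 on chromosome 7 and 1 on chromosome 12, where the 196 nt loci numbered 7, 4 and 1. On chromosome 8 it has 4 snRNA genes of 195 or 196 nt, beside the loci of 194 and 196 nt there, and on chromosome 11 it has 1 of 198 nt, beside the locus of 197 nt. At 160 nt it has 9 snRNA genes, 5 on chromosome 3, 2 on chromosome 4, and 1 each on chromosomes 2 and 10. At 161 nt it has 5 more, 2 on chromosome 6 and 1 each on chromosomes 1, 2 and 3. The 161 nt loci numbered 4 on chromosome 3, 2 on chromosome 2, and 1 each on chromosomes 1, 6 and 10. The step was not the same throughout. Genes set beside the 196 nt loci were mostly 1 nt longer, but those set beside the 161 nt loci were equal or 1 nt shorter. At 162 nt the table has 1 snRNA gene, on chromosome 4, where no 161 nt locus lay. At 196 nt it has 2, both on chromosome 8. No snRNA gene of 153 to 155 nt is in the table, though 1 snoRNA gene is. The nearest snRNA genes in length are 3 of 151 nt, 2 on chromosome 6 and 1 on chromosome 1. Lengths in the lists are end minus start and would be 1 nt longer if the authors counted starts from 1, at all lengths alike.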

How the data were processed

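Per the labels' protocols, RNA of 50 to 500 nt was given adaptors, 1 of them specific for the structure of the 5′ end, and reverse transcribed without amplification. The authors deposited 1 list of loci per library with a whole number that was read, from the values, as an unnormalized count of reads. The aligner, build, locus rule and handling of multiply matching reads are not stated in the labels or lists. A locus missing from a list was given 0 reads. Starts were raised by 1 on the BED convention.

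Ratios of reads per 1000000 library reads were given exact conditional binomial intervals, and shares Clopper-Pearson intervals (Python 3.11.15, SciPy 1.17.1, pandas 2.3.3), all for counting error under the assumption of independent reads. The interval method was run on simulated independent counts. These follow the assumption of the method, so the run does not check whether that assumption holds for the real reads. Log2 ratios used 0.5 added reads. Relative values were divided by the median ratio of all loci with at least 20 reads. Recurring lengths were those of 3 or more loci, and the 3 of them with the most reads were set apart from the rest. The rule for loci to be named took in the 25 with most reads, loci of recurring lengths (given by their sums and, where results turn on them, singly), the 5 highest and 5 lowest ratios, loci with at least 10 reads in 1 library and 0 in the other, and equal-count groups; any further locus was picked once its values were known. The members, lengths and lists were chosen with earlier results of these data known. Alternatives covered spacing, length, read minimum, scaling and repeated counts.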

Additional observations from a re-analysis of the deposited data

How the results depend on the processing

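Scaled to the median locus, loci at least 2-fold higher in stage 2 numbered 5 and those lower 25, by construction of the scaling; scaled to the total of all other loci, 21 were lower. The summed ratio of the 80 loci was 0.376 and 0.432 under these scalings, that of 154 nt 0.378 and 0.435, of 161 nt 0.698 and 0.802, of 162 nt 1.10 and 1.27, and of 196 nt 0.238 and 0.273. Under median scaling 158 nt was at 1.67, and 155 nt reversed to 0.925, as did JNnc_loci0295 at 0.833 and JNnc_loci0465 at 0.983. Without its strongest locus, 155 nt reversed to 0.895, and 154 nt was at 0.650, 158 nt at 1.59, 161 nt at 1.05, 162 nt at 2.26 and 196 nt at 0.292. For 159 nt this gave no value, since the others had 0 reads in stage 1. Spacing of 200 or 1000 nt, spacing on either strand and length counted 1 nt longer gave 77 to 87 loci in place of 80, and were run for that number only. Other read minimums kept the 2-fold counts within 1.5 times, and entering equal counts once kept every summed ratio within its interval. No paired analysis was possible because 1 library stands for each stage, which also means that no library could be left out.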
